A study of Schizosaccharomyces pombe with 6 samples.

Results

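Of 474 noncoding RNAs measured in the fission yeast Schizosaccharomyces pombe, 271 (57.2%) were at the level of a deleted gene in wild type, and 259 of these stayed at or below the detection level used here on all arrays of wild type and of strains lacking the nuclear RNA surveillance factors Air1 or Cid14. The 271 RNAs were chosen by their values in wild type: the feature ID begins with SPNCRNA, and the mean log2 value of both wild-type arrays is 4.5 or lower. They are called silent here in that sense only. An RNA counted as detectable in a mutant when both arrays of that mutant lay above 5. By this measure 1 of the 271 became detectable in air1delta (SPNCRNA.130, named omt3) and 1 in cid14delta (SPNCRNA.78). Both come with limits. SPNCRNA.130 had 4.60 on wild-type replicate 2, above 4.5. SPNCRNA.78 had a change of 2.79 ± 1.08 in cid14delta (log2 ± SE). SPNCRNA.59, a feature listed under the same gene as SPNCRNA.78, had 6.02 and 5.74 in wild type. No other member was above 5 on both arrays of either mutant.

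The series holds 6 Affymetrix tiling arrays with 5483 annotated features each, from 3 strains: air1delta (SPB103), cid14delta (SPB101) and wild type (SPB76), with 2 biological replicates and thus 2 arrays per strain. The mutants lack air1 or cid14, and no other allele is given in the labels for any of the strains. All cultures grew at 30 °C in rich medium (YES, yeast extract with supplements) to an OD600 of 0.5 before hot phenol extraction of total RNA. Each deletion was studied in a single strain, and whether the replicates go back to separate clones is not given, so the p-values measure the spread between these cultures. The air1delta arrays came from another array series than the other arrays, so array series and strain cannot be told apart in any comparison with air1delta. RNA was measured in bulk, so a transcript made in fewer cells and one made at a lower level per cell cannot be told apart.

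Air1 and Cid14 are subunits of TRAMP, a nuclear complex in which Cid14 adds short poly(A) tails to RNAs, Air1 is the zinc-knuckle RNA-binding partner and the helicase Mtr4 hands the RNA to the exosome. The exosome is a ring of inactive subunits with the nucleases Dis3 and Rrp6, and it degrades or trims many noncoding transcripts in yeast nuclei. A noncoding RNA made in wild-type cells but destroyed at once could therefore be low in wild type and higher in a surveillance mutant. Comparing the mutants with wild type asks which of the silent RNAs are higher in a mutant. RNA levels alone do not tell slower decay from more transcription, and neither was tested.

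The deleted genes gave the level of a feature without transcript. On the air1delta arrays air1 stood at 4.42 and 4.90, and on the cid14delta arrays cid14 stood at 3.91 and 3.63. Both genes had values of 8.84 or more on all arrays of the strains that carry them. The highest of the values from deleted genes, 4.90, is used below as the floor. A rise that starts under it is given as a lower bound, computed from 4.90 to the mean of both mutant arrays. The error of that mean is not counted in the bound. The floor rests on these genes alone.

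The medians of the members were close to each other in the 3 strains. Their median log2 value was 3.95 and 3.96 on the air1delta arrays, 3.90 and 3.84 on the cid14delta arrays, and 3.94 and 3.97 on the wild-type arrays. On single arrays, 2 and 7 of the 271 were above 5 in air1delta, 3 and 2 in cid14delta, and 1 and 1 in wild type. In all, 259 members (95.6%) were at or below 5 on all 6 arrays, and 238 (87.8%) had a mean of 4.5 or lower in all 3 strains. The 203 noncoding RNAs above 4.5 in wild type had array medians of 5.94 and 5.87 in air1delta, 5.76 and 5.63 in cid14delta, and 5.76 and 5.73 in wild type. The plot of the members by array shows the same band on each array, with a few single points above it.

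**Figure D1:**
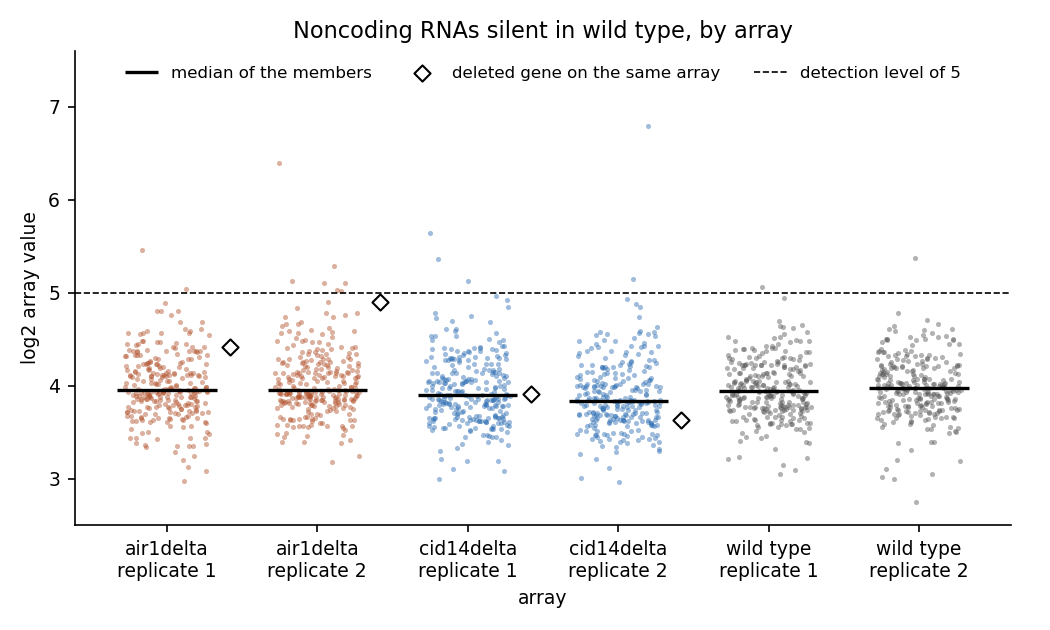
Log2 array value of each of the 271 members (points, spread sideways for visibility) on each of the 6 arrays; bars are the medians of the members, diamonds the deleted gene on the arrays of its own mutant, and the dashed line the detection level of 5. The medians lie between 3.84 and 3.97, and the counts above the line are 2 and 7 in air1delta, 3 and 2 in cid14delta and 1 and 1 in wild type.

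How firmly a member can be called undetected follows from the error of its mean. The 95% interval of the mutant mean, from limma's pooled and moderated spread, ended below 5 for 259 of the 271 members in air1delta and for 263 in cid14delta. The remaining 12 in air1delta and 8 in cid14delta had intervals that reached 5 or began above it. Both arrays of a strain differed by a median of 0.14 over the members in air1delta, 0.15 in cid14delta and 0.162 in wild type. A log2 change had a standard error of 0.119 for the median member and 0.0812 for the median feature.

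SPNCRNA.130 (omt3) was the member detectable in air1delta. Its log2 values were 5.45 and 5.28 in air1delta, 4.40 and 4.84 in cid14delta, and 4.06 and 4.60 in wild type. The air1delta arrays were higher than all others, while the cid14delta and wild-type arrays overlapped. The change was 1.04 ± 0.22 in air1delta and 0.29 ± 0.22 in cid14delta relative to wild type (log2 ± SE, n = 2 arrays per strain). The mean of the air1delta arrays lay 1.39-fold above the floor, its error not counted, and in cid14delta the mean stayed under the floor. Between the mutants, a comparison that the choice of members did not use, the difference of 0.75 ± 0.22 did not pass (limma, Benjamini-Hochberg adjusted p = 0.0884). Wild-type replicate 2 was itself above 4.5, and with the limit set on the higher wild-type array SPNCRNA.130 is no member and 0 members were detectable in air1delta.

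In the reference gene table (assembly ASM294v3), the nearest measured gene on one side of omt3 is mei2, which encodes the RNA-binding protein that switches fission yeast into meiosis, and on the other side it is omt2. The noncoding RNAs SPNCRNA.4034 and SPNCRNA.4035 overlap omt3 there, and neither is measured as a feature. Where they overlap, their signal cannot be told apart from that of omt3. The log2 values of mei2 were 8.66 and 8.97 in air1delta, 8.59 and 8.93 in cid14delta, and 8.28 and 8.74 in wild type, and the strains overlapped. Those of omt2 were 6.79 and 7.05 in air1delta, 6.47 and 6.65 in cid14delta, and 6.41 and 6.42 in wild type. The air1delta values of omt2 were the highest, in the same order of strains as those of omt3. In air1delta omt2 rose by 0.51 ± 0.11 relative to wild type (limma adjusted p = 0.0261), but not after quantile normalization (0.28, adjusted p = 0.0855). It also did not pass without wild-type replicate 1 (0.0707), wild-type replicate 2 (0.0834) or air1delta replicate 2 (0.0888), given as limma adjusted p. In cid14delta omt2 had a change of 0.15 ± 0.11 (adjusted p = 0.407), and mei2 had 0.31 ± 0.20 in air1delta (adjusted p = 0.298). Whether omt3 and omt2 were read from a shared transcript was not tested.

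SPNCRNA.78 was the member detectable in cid14delta, and it was the least reproducible of the pair. Its log2 values were 3.09 and 6.39 in air1delta, 5.64 and 6.79 in cid14delta, and 3.83 and 3.02 in wild type. Both cid14delta arrays and 1 air1delta array were high, and the other air1delta array was as low as wild type. The change relative to wild type was 1.31 ± 1.08 in air1delta and 2.79 ± 1.08 in cid14delta (log2 ± SE, n = 2 arrays per strain). The mean of the cid14delta arrays lay 2.49-fold above the floor, its error not counted, and the lower array (5.64) lay nearer to the floor. Between the mutants the difference was -1.48 ± 1.08 (air1delta minus cid14delta, limma adjusted p = 0.388).

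The reference table gives SPNCRNA.78 as an older name of 1 gene, prl59 (SPNCRNA.817), and lists SPNCRNA.59 and SPNCRNA.77 under the same gene. The prl genes are noncoding RNAs found as polyadenylated transcripts without a long reading frame. SPNCRNA.59, which is above 4.5 in wild type and so no member, had 5.46 and 6.09 in air1delta, 5.97 and 6.26 in cid14delta, and 6.02 and 5.74 in wild type. The member SPNCRNA.77 had 3.83 and 3.25 in air1delta, 3.19 and 3.43 in cid14delta, and 4.62 and 2.99 in wild type. SPNCRNA.59 was thus expressed and overlapped between all strains, and SPNCRNA.77 was at or below the floor on all arrays. Silence in wild type therefore holds for the feature SPNCRNA.78 and not for all features listed under prl59. Between the mutants neither passed (-0.34 ± 0.23, adjusted p = 0.351 for SPNCRNA.59, and 0.23 ± 0.53, adjusted p = 0.793 for SPNCRNA.77). The measured genes on either side of the locus did not pass in either mutant. Relative to wild type imt3 had changes of -0.02 ± 0.08 in air1delta (adjusted p = 0.894) and -0.17 ± 0.08 in cid14delta (adjusted p = 0.237), and sec3 had -0.01 ± 0.06 (adjusted p = 0.861) and 0.01 ± 0.06 (adjusted p = 0.886).

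SPNCRNA.78 also carries values that recur exactly elsewhere in the table. Its wild-type value of 3.83 on replicate 1 occurs 5 times over all features and arrays, and its 3.02 on replicate 2 occurs 2 times. Such exact repeats touched 145 features (2.64%), among them 32 of the 271 members (11.8%), 11 of the 203 other noncoding RNAs (5.42%) and 18 of 92 silent features of other kinds (19.6%). No value of SPNCRNA.130 was repeated. How many probes stand behind each feature is not stated in the labels, and the part of this in the swings of SPNCRNA.78 was not tested.

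**Figure D2:**
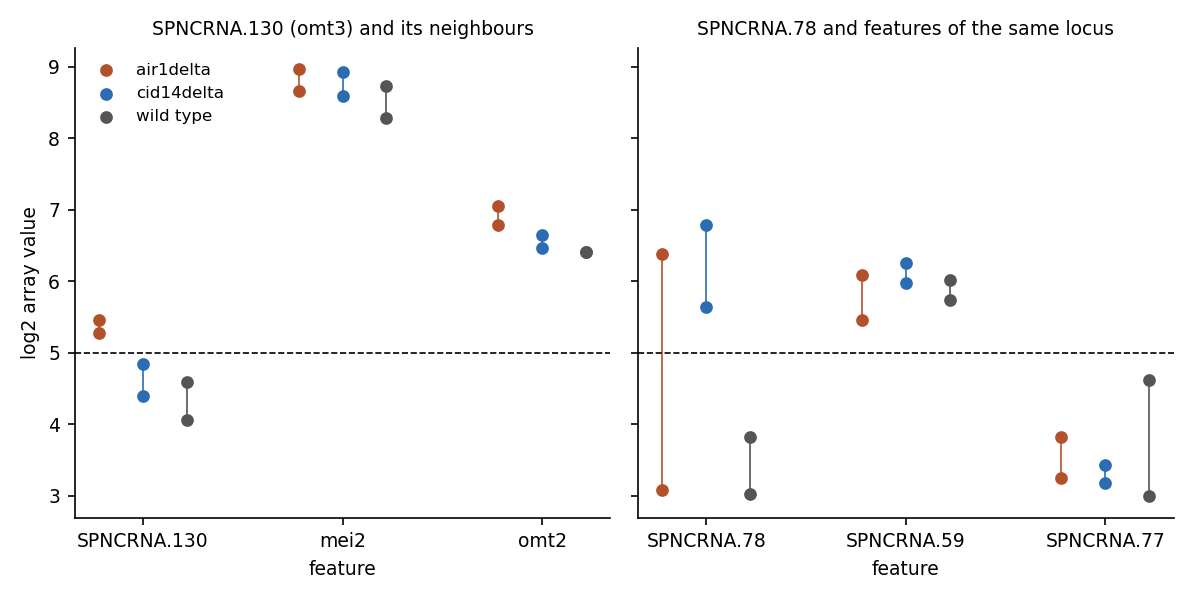
Log2 array values (points, 2 arrays per strain joined by a line) of SPNCRNA.130 with its nearest measured genes mei2 and omt2 on the left, and of SPNCRNA.78 with SPNCRNA.59 and SPNCRNA.77, listed under the same gene, on the right; the dashed line is the detection level of 5. SPNCRNA.130 lies above the line on both air1delta arrays only (5.45 and 5.28), while SPNCRNA.78 has 3.09 and 6.39 in air1delta.

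A further 10 members were above 5 on at least 1 of the 6 arrays without meeting the rule. SPNCRNA.272 came nearest in air1delta, with 4.80 and 5.13 in air1delta, 4.40 and 4.49 in cid14delta, and 4.45 and 4.07 in wild type, so that its air1delta arrays were above all others. SPNCRNA.24 (prl24) came nearest in cid14delta, with 4.59 and 4.11 in air1delta, 4.68 and 5.14 in cid14delta, and 4.25 and 4.17 in wild type. SPNCRNA.264 had 5.13 and 4.58 in cid14delta against 4.12 and 3.93 in wild type. Some were high on a single array with no counterpart, as SPNCRNA.450 with 5.36 and 4.12 in cid14delta, and some in wild type itself, as SPNCRNA.79 with 3.6 and 5.38 and SPNCRNA.481 with 5.06 and 3.51. Over all members, 10 differed by more than 1 between the wild-type arrays.

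The share that became detectable was read beside other silent features. Of the 363 features of any kind with a wild-type mean of 4.5 or lower, 0.551% had both arrays above 5 in air1delta and likewise 0.551% in cid14delta, against 0.369% of the 271 noncoding members in each. The 92 silent features that are not noncoding RNAs gave 1 in each mutant (1.09%). In air1delta it was SPAC977.04, with 5.5 and 5.48 in air1delta against 3.83 and 3.34 in wild type. In cid14delta it was hpz2 (SPAC13F5.07c), with 5.29 and 5.36 in cid14delta against 3.92 and 4.17 in wild type. So few features crossed the level in either class that no difference between the classes is drawn from these counts. Silence itself was far more common among noncoding RNAs, at 57.2% of 474, than among the 5009 other features, at 1.84%.

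Choosing features that are low in wild type favours values that happened to fall low there, so the reverse reading was made as well. Of 264 noncoding RNAs with a mean of 4.5 or lower in air1delta, 1 was above 5 on both wild-type arrays, namely SPNCRNA.366, with 4.63 and 3.65 in air1delta against 6.73 and 6.41 in wild type. Of 265 with a mean of 4.5 or lower in cid14delta, 0 were. SPNCRNA.366 is not among these 265, since it had 4.88 on both cid14delta arrays, which is below 5 but above the limit of 4.5.

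**Figure D3:**
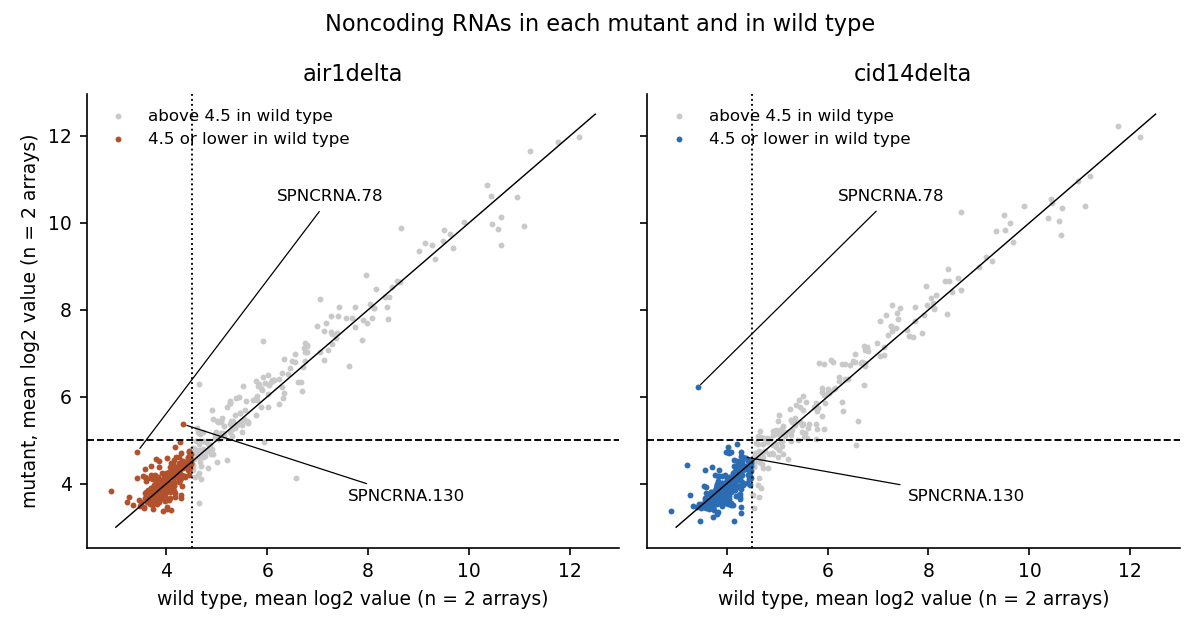
Mean log2 value (n = 2 arrays) of all 474 noncoding RNAs in air1delta (left) and cid14delta (right) on the vertical axis against wild type on the horizontal axis; coloured points are the 271 members, the dotted line is the wild-type limit of 4.5, the dashed line the detection level of 5 and the diagonal equality. SPNCRNA.130 lies above the dashed line in air1delta (5.37) and SPNCRNA.78 in cid14delta (6.21), and the other members form a cloud below it.

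The changes of the members relative to wild type are a description, since the wild-type values chose them. In air1delta their median change was 0.02, against 0.03 over all features, and 150 of 271 changes were positive. In cid14delta the median change was -0.06, against 0.03 over all features, and 99 of 271 were positive. After quantile normalization the cid14delta median turned to 0.01, against -0.01 over all features. With each array centred on the overall median it was -0.13, against -0.04. The same centring turned the air1delta median to -0.05, against -0.04 over all features. These medians depend on the scaling, so no direction is read from them. A rise of 1 or more on the log2 scale was seen for 2 members in air1delta (SPNCRNA.78 and SPNCRNA.130) and 2 in cid14delta (SPNCRNA.78 and SPNCRNA.126), and 0 fell by as much in either. Both air1delta arrays were above both wild-type arrays for 72 members and below them for 39, where 39.3% and 29.7% of all features were. Both cid14delta arrays were above for 39 members and below for 80, where 35% and 27.7% of all features were.

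By limma's test, 7 members were called higher and 4 lower in air1delta relative to wild type, where 26.2% of all features were called. In cid14delta 2 were called higher and 5 lower, where 8.66% of all features were called. Among them SPNCRNA.126 had 4.61 and 4.26 in cid14delta against 3.22 and 3.21 in wild type. Nothing is read from these counts, since wild type chose the members. With the replicate block, which groups all arrays by replicate number, 3 members were called in cid14delta in place of 7. Wild-type and cid14delta arrays of one number share a day, but the air1delta arrays in the same block are of other days. SPNCRNA.126 did not overlap between the strains, and yet it ended under the floor of 4.90, so no fold is given.

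The mutants were also set against a wild-type array that took no part in the choice. When noncoding RNAs were chosen on wild-type replicate 1 alone (275 at 4.5 or lower), the median difference from replicate 2 was -0.0015 for air1delta and -0.08 for cid14delta, against 0.04 and 0.03 over all features. When they were chosen on replicate 2 (262), the median difference from replicate 1 was 0.04 for air1delta and -0.05 for cid14delta, against 0.04 and 0.02 over all features. The RNAs detectable in air1delta were then SPNCRNA.130 and SPNCRNA.293 by the first choice and SPNCRNA.136 by the second, and in each case the wild-type array left out was itself above 4.5. In cid14delta SPNCRNA.78 was detectable by both choices with the left-out wild-type array at 4.5 or lower, and the first choice added SPNCRNA.103 (sme2, the meiotic noncoding RNA that holds Mei2 and Mmi1 in a nuclear dot), with 5.05 and 5.03 in cid14delta against 4.46 and 5.28 in wild type.

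The members were then compared between the mutants, the contrast whose values had no part in choosing them. Relative to cid14delta, 10 members were higher and 2 lower in air1delta, and 259 of the 271 did not pass (limma, adjusted p under 0.05 over all features). Over all features 5.51% were higher, 4.5% were lower and 10% were called in either direction, so that the members' 4.43% lay below the background; of the 203 expressed noncoding RNAs 12.3% were called. The members' median difference was 0.09, against 0.02 over all features, but -0.02 against -0.01 after quantile normalization. With each array centred on the overall median it was 0.08, against 0.02, and no direction is read from it. At an unadjusted p under 0.05, 50 members (18.5%) passed, against 31.9% of all features.

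All 12 called members were at or below 5 on all 6 arrays, with 4.90 as their highest value, so each difference lies between levels under the detection limit, and no fold is given. SPNCRNA.448 had 4.80 and 4.90 in air1delta against 3.76 and 3.94 in cid14delta, and 4.48 and 3.86 in wild type. Its difference was 1.00 ± 0.20 (limma adjusted p = 0.0438). SPNCRNA.233 had 3.93 and 4.12 in air1delta against 3.19 and 3.11 in cid14delta, and 4.36 and 3.92 in wild type. It differed by 0.87 ± 0.16 (adjusted p = 0.0344), and here the cid14delta arrays were the low ones while air1delta and wild type overlapped.

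SPNCRNA.569 had 4.49 and 4.74 in air1delta against 3.96 and 3.98 in cid14delta, and 4.40 and 4.54 in wild type (difference 0.64 ± 0.10, adjusted p = 0.0298). SPNCRNA.163 had 4.69 and 4.78 in air1delta against 4.05 and 4.18 in cid14delta, and 4.37 and 4.52 in wild type (0.62 ± 0.09, adjusted p = 0.0277). In both, the cid14delta arrays were below all others. SPNCRNA.185 had 4.36 and 4.02 in air1delta against 3.61 and 3.55 in cid14delta (0.61 ± 0.12, adjusted p = 0.0401). SPNCRNA.37 (prl37) had 4.11 and 4.12 in air1delta against 3.59 and 3.51 in cid14delta (0.56 ± 0.10, adjusted p = 0.0342). The other 4 that were higher in air1delta, SPNCRNA.119, SPNCRNA.470, SPNCRNA.143 and SPNCRNA.221, differed by 0.29 to 0.45.

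The pair that were lower in air1delta were SPNCRNA.126 and SPNCRNA.42 (prl42). SPNCRNA.126 had 3.61 and 3.54 in air1delta against 4.61 and 4.26 in cid14delta, and 3.22 and 3.21 in wild type, a difference of -0.85 ± 0.12 (adjusted p = 0.0276). SPNCRNA.42 had 4.03 and 3.93 in air1delta against 4.49 and 4.32 in cid14delta, a difference of -0.43 ± 0.09 (adjusted p = 0.0423). After quantile normalization 5 of these 12 calls were kept, and with a variance trend 5 were. With the replicate block 2 of the 12 were kept, and with the day as a block 1 was. Without any one of the 4 mutant arrays 0 of the 12 were called.

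**Figure D4:**
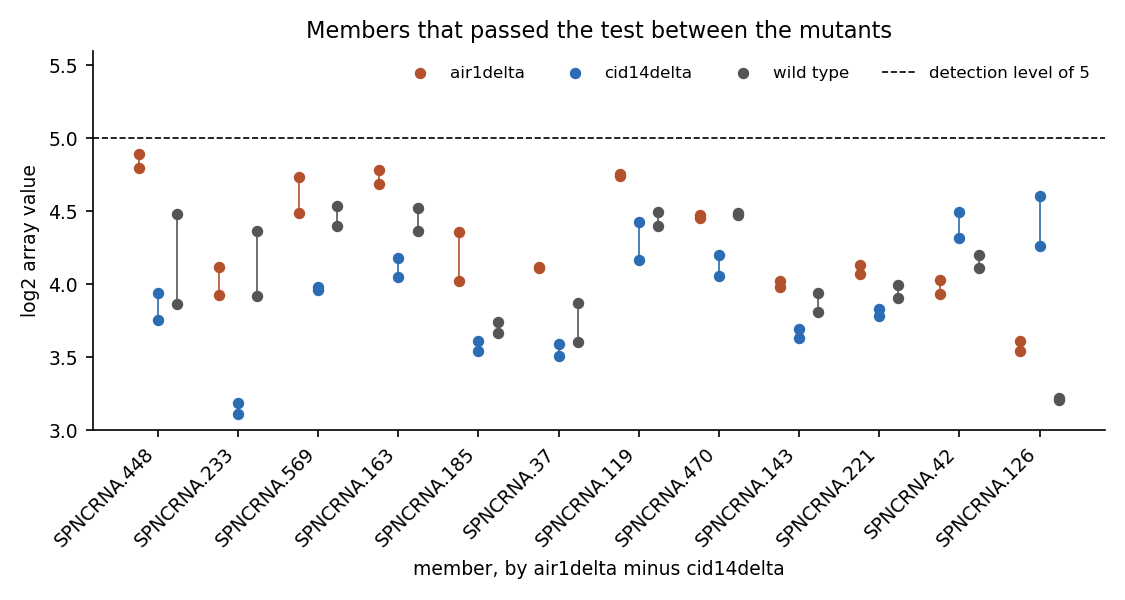
Log2 array values (points, 2 arrays per strain joined by a line) of the 12 members that passed limma's test between air1delta and cid14delta, ordered by the difference; the dashed line is the detection level of 5. All points lie below the line, and SPNCRNA.448 in air1delta comes closest, at 4.90.

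Few members have been given a gene name. Of the 271, 34 carried a symbol in the reference table, 32 of them prl names, out of 54 prl features among all 474 noncoding RNAs. The prl members had medians of 3.89 in air1delta, 3.87 in cid14delta and 3.98 in wild type, and 30 of the 32 were at or below 5 on all 6 arrays, prl24 and the prl59 feature SPNCRNA.78 being the exceptions. Between the mutants 2 of the 32 passed (prl37 and prl42), where 10% of all features were called, and the median difference was -0.01. In list order, prl2 had means of 4.03, 3.73 and 4.24 in air1delta, cid14delta and wild type, and prl4 had 3.50, 3.48 and 3.34. The means of prl5 were 4.27 in air1delta, 4.07 in cid14delta and 4.05 in wild type, and those of SPNCRNA.104, listed under prl66, were 3.89, 4.19 and 4.14. For prl12 they were 3.85, 3.42 and 3.65, and for prl13 they were 3.69, 3.97 and 4.17. For prl14 they were 4.36, 4.32 and 4.33, for prl15 4.13, 3.82 and 3.68, and for prl16 3.67, 3.82 and 4.07 in the same order of strains. Other prl RNAs were expressed, as prl3 (SPNCRNA.03), with means of 9.17, 9.80 and 9.33.

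Members and other noncoding RNAs were also set beside the genes they overlap. The labelled target was double-stranded, so the values do not say which strand was transcribed. Of 227 members matched to a noncoding entry of the reference table, 46 (20.3%) overlapped a protein-coding gene, against 64 of 136 (47.1%) matched noncoding RNAs above 4.5 in wild type. Another 67 of the 203 RNAs above 4.5 and 42 of the 271 members were not matched, and these shares leave them out. The wild-type value split the classes, and signal of an overlapping gene may add to that value. Nothing about silent RNAs is therefore read from these shares. Measured partners of the members numbered 44, and their wild-type levels ran from 4.35 to 13.7 with a median of 8.89, so some members were silent beside strongly expressed partners. SPNCRNA.317 had a mean of 3.85 in wild type while its partner rps1701, a ribosomal protein gene, had 13.7. SPNCRNA.134 had 4.04 and its partner fhn1 13.04. The labels do not state the annotation and build behind the array's features, so an overlap in ASM294v3 may not be one on the array.

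Some partners changed in the mutants. In air1delta 9 of the 44 partners passed the test relative to wild type, 8 higher and 1 lower, where 26.2% of all features were called, and the members beside them had changes of -0.60 to 0.21. This share of the partners is not above that of all features. Among them mug121, of a family of genes raised in meiosis, rose by 1.13 (limma adjusted p = 0.00796), while the overlapping member, SPNCRNA.05 (prl5), changed by 0.21. SPCC1672.01 rose by 0.58 (adjusted p = 0.011) beside a change of -0.02 in SPNCRNA.466, and the checkpoint gene hus1 rose by 0.50 (adjusted p = 0.0321) beside -0.09 in SPNCRNA.54 (prl54). In cid14delta 3 of the 44 passed, where 8.66% of all features were called. These were mug121 (0.68, adjusted p = 0.0306), SPCC1672.01 (0.37, adjusted p = 0.0469) and pgm1 (-0.28, adjusted p = 0.0484). Between the mutants 3 of the 44 partners passed, all higher in air1delta, where 10% of all features were called in either direction. The kinase gene ark1 was higher by 0.35 (adjusted p = 0.0295), and its member SPNCRNA.457 differed by 0.22 and did not pass. SPAC22E12.02 was higher by 0.51 (adjusted p = 0.0401), and its member SPNCRNA.52 differed by 0.30 and did not pass. The partner of SPNCRNA.569, trm734, was higher by 0.34 (adjusted p = 0.0439), and that member, 1 of the 12 called, differed by 0.64.

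**Figure D5:**
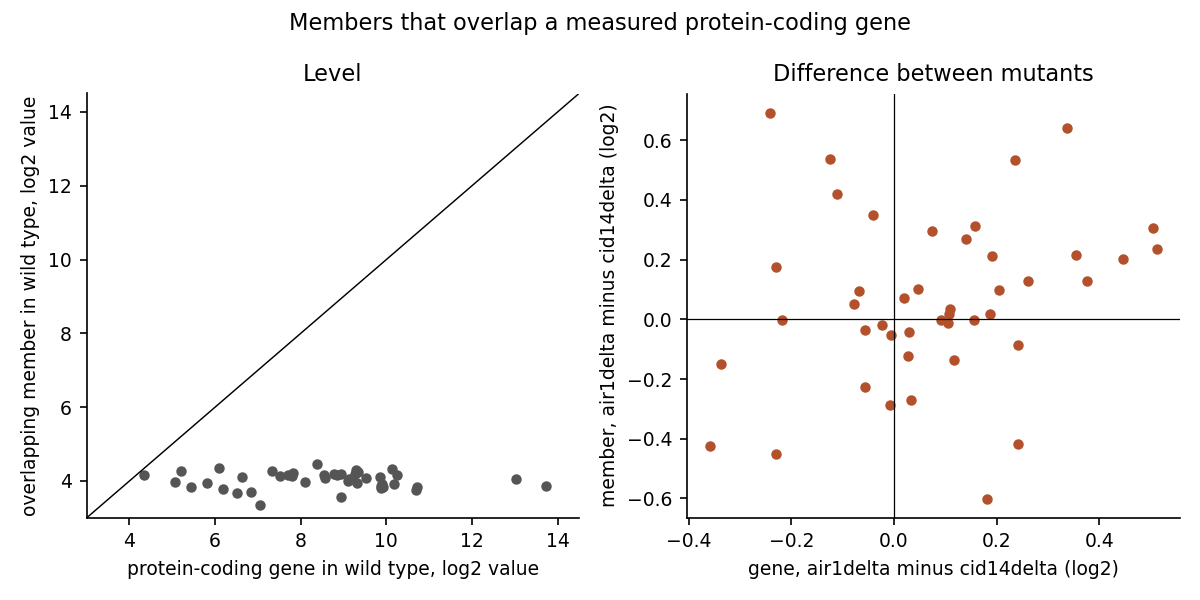
The 44 pairs of a member and the measured protein-coding gene it overlaps in assembly ASM294v3: log2 level in wild type (left, with the line of equality) and log2 difference air1delta minus cid14delta (right), gene on the horizontal and member on the vertical axis. In wild type the members lie under 4.5 by the rule that chose them, and the gene levels run from 4.35 to 13.7.

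The members nearest to the limit show how the cut lies. Just inside were SPNCRNA.418, SPNCRNA.223 and SPNCRNA.79, each with a wild-type mean of 4.49, and just outside were SPNCRNA.105 and SPNCRNA.237, each with 4.51, and SPNCRNA.116 with 4.52. SPNCRNA.105 had 4.49 and 5.11 in air1delta, 4.40 and 4.60 in cid14delta, and 4.35 and 4.67 in wild type, and its strains overlapped.

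Genes of the surveillance machinery itself were measured well above the floor. Of 31 listed factors of TRAMP, the exosome and its partners, 5′ exonucleases, transcription termination and RNAi, without the deleted genes, 6 rose, 1 fell and 24 did not pass in air1delta relative to wild type, where 26.2% of all features were called. In cid14delta 3 rose, 0 fell and 28 did not pass, where 8.66% of all features were called, and 0 of the 31 passed after each array was centred on the overall median or with the replicate block. The share called in air1delta is not above that of all features. The exosome cap gene csl4 rose by 0.82 in air1delta (limma adjusted p = 0.00749), the ring subunit gene rrp41 by 0.86 (adjusted p = 0.013) and the nuclease gene rrp6 by 0.59 (adjusted p = 0.0115). The others that rose were cti1, rrp46 and rdp1, and dhp1 fell (-0.20, adjusted p = 0.0461). The exosome genes dis3, rrp4, rrp40, rrp42, rrp43, rrp45 and mtr3 did not pass in air1delta. The helicase gene mtr4 had changes of 0.14 in air1delta (adjusted p = 0.231) and 0.21 in cid14delta (adjusted p = 0.153). The marker lists below are short, and their counts stand beside the same 26.2% of all features called in air1delta and 8.66% in cid14delta. Of 6 meiotic genes mcp7 rose by 1.14 in air1delta (adjusted p = 0.0208) and by 1.10 in cid14delta (adjusted p = 0.0421), mug8 fell by 0.41 in cid14delta (adjusted p = 0.0421), and the others did not pass. Of 6 genes expressed in M cells, 1 rose in air1delta, and 1 rose and 1 fell in cid14delta. Of 4 expressed in P cells, 2 fell in air1delta and 0 were called in cid14delta. Of 6 genes used as auxotrophic markers, 3 fell in each mutant, with leu1 and lys1 among them in both. Between the mutants, where 10% of all features were called, 1 surveillance factor was higher in air1delta (csl4, by 0.72, adjusted p = 0.0173) and 1 was lower (sen1, by -0.37, adjusted p = 0.0439). Their part in the values of the members was not tested.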

How the data were processed

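The authors deposited 1 table with a log2 value per feature and array; the log2 scale was read from the values, which ran from 2.75 to 14.8. The submitters' processing notes name affy, without a version or role. The sources used here do not state background correction, normalization, summary over probes or build. All 6 columns were used. Feature IDs were matched to a RefSeq gene table (ASM294v3) by locus tag or synonym, for names and neighbours only: 229 members matched (6 by synonym), 2 of the 229 to protein-coding entries, and 42 did not.

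The model was fitted in limma 3.58.1 (R 4.3.3) to all 6 arrays and all 5483 features, with the strain as the only factor, 3 residual and 2.51 prior degrees of freedom, two-sided, and p-values were adjusted by Benjamini-Hochberg over the whole table (threshold 0.05). The fit was tested on simulated data with planted changes. Those data held no array-series or day effect, so nothing about such effects follows from that test. Members, lists and tests were chosen with earlier results of these data known. The text names each detectable member, up to 8 called members per direction between the mutants, 3 noncoding RNAs on each side of the limit, the first 10 members with a symbol, and neighbours; members above 5 on single arrays, SPNCRNA.143, SPNCRNA.221, the overlapping pairs and other RNAs outside this rule were named after their values were seen. Of 34 surveillance genes listed, erh1 was not matched.

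Wild-type and cid14delta arrays of the same number share a day in the labels, which pairs them. Deviations of same-numbered arrays correlated at r = -0.00632 between cid14delta and wild type, 0.0413 between air1delta and wild type, and 0.0159 between the mutants. The alternatives were other limits, scaling, variance priors, a filter, blocks and leaving out each array.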

Additional observations from a re-analysis of the deposited data

How the results depend on the processing

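With 2 arrays per strain the calls of limma rested on the spread pooled over strains, and levels under about 5 have no known order. The number of members was 151 with a wild-type limit of 4.0, and 241 to 325 under all other choices. Detectable members in air1delta numbered 0 with that limit, 9 with a limit of 5.0, 0 when the higher wild-type array had to meet 4.5, 9 with a detection level of 4.5, 0 with 5.5, 0 when a gap of 1 to the higher wild-type array was asked, and 1 to 7 when an array was left out, the 7 without air1delta replicate 1 and 2 without air1delta replicate 2 or wild type replicate 2. In cid14delta they numbered 7 with a limit of 5.0, 9 with a detection level of 4.5, and 1 to 3 when an array was left out (2 without cid14delta replicate 1 or wild type replicate 2, 3 without cid14delta replicate 2); SPNCRNA.78 was among them each time. Both scalings left 1 in each mutant, the same RNA as without them.

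Members called between the mutants numbered 6 after quantile normalization (5 of them among the 12), 5 with a variance trend, 6 with a robust trend, 2 with the replicate block (SPNCRNA.163 and SPNCRNA.126, both among the 12), 2 with the day as a block (1 shared) and 0 to 9 when an array was left out. Of air1delta relative to wild type, 7 were called after median centring, 5 from the 4 arrays of both strains, 3 with a trend, 3 with a robust trend and 2 to 8 when an array was left out, against 11; the replicate block gave 15, of which 8 were shared. Of cid14delta relative to wild type, where the day pairs the arrays, 3 were called with the replicate block and 4 with the day as a block, 4 with a trend, 4 with a robust trend, 1 from the 4 arrays and 0 to 7 when an array was left out, against 7. Over all features the replicate block moved the calls between the mutants to 72, against 549, and those of cid14delta relative to wild type to 179, against 475. Fewer degrees of freedom come with each block and each left-out array by construction, and the cause of the other changes was not tested. For the other settings the count over all features is not given here. A loss of calls among members can there not be told apart from a loss over all features. Nothing is read from the counts relative to wild type, since wild type chose the members. No called value of a named RNA or neighbour changed its sign under any alternative run. The day block brought SPNCRNA.130 past the threshold between the mutants (adjusted p = 0.0489, over a range of 0.0489 to 0.295). With only features whose mean over all arrays was above 5, 0 members were left, so that alternative gave no value.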

Other observations

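Over all features and arrays, 96 values occurred more than once, each at most 6 times. SPNCRNA.391, with 3.70 and 5.10 in air1delta, 3.70 and 3.88 in cid14delta, and 4.21 and 3.19 in wild type, had 5 repeated values of 6, and SPNCRNA.233, 1 of the 12 members that differed between the mutants, had 4 of 6. SPNCRNA.366 had 4.88 on both cid14delta arrays, against 6.73 and 6.41 in wild type.

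SPNCRNA.66 and SPNCRNA.104, both listed under prl66, were both below the floor on all arrays, with 4.03 and 3.49 in air1delta, 4.38 and 4.02 in cid14delta, and 4.04 and 3.91 in wild type for SPNCRNA.66, and 3.96 and 3.81, 4.41 and 3.97, and 4.05 and 4.23 in the same order for SPNCRNA.104.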
